A study of Mus musculus with 6 samples.

Results

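The 10 genes followed here belong to the Hippo pathway and its nuclear effectors, in RNAseq of immortalized mouse pancreatic fibroblasts. They are the co-activators Yap1 and Wwtr1 (the gene of TAZ), the transcription factors Tead1, Tead2 and Tead3, the kinases Lats1 and Lats2, the adaptors Amotl2 and Ajuba, and the target gene Ankrd1. They were taken by gene symbol, and all 10 are among the 14831 genes listed in the count table. The study used such lines to ask how loss of GLI2 and GLI3, transcription factors of the Hedgehog (HH) pathway, changes fibroblasts. There are 6 libraries, 3 with the genotype label WT and 3 with the label Gli2-/-;Gli3-/- (KO below), all from cells of mixed strain grown to confluence in DMEM with 10% calf serum and antibiotics. Per the study's methods, lines grew out from the pancreas of adult mice with floxed Gli alleles and were immortalized. Control cells then received an adenovirus with eGFP under the CMV promoter and a dsRed lentivirus, KO cells received the eGFP adenovirus and an adenovirus with Cre under the CMV promoter, and both were sorted. The methods also state a screen for recombination by qPCR and western blot. The replicates of a group are separate wells, so p-values measure the spread between wells and libraries and not between independently made lines, and the viruses differ between the groups together with the genotype, so that their effects cannot be told apart.

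Whole-gene counts of the targeted genes were higher in the libraries labelled KO. Gli2 had 809, 944 and 868 counts in the WT libraries and 1932, 2316 and 1926 in the KO libraries, a log2 fold change of 1.05 (SE 0.04, edgeR adjusted p = 8.01e-10). Gli3 had 392, 416 and 398 counts in WT and 1434, 1637 and 1404 in KO, a log2 fold change of 1.71 (SE 0.05, adjusted p = 2.10e-11). These are counts over whole genes, so they do not show whether an exon was lost. A pair of HH target genes chosen after their values were seen were lower in KO: Ptch1 had 7046, 7912 and 7834 counts in WT and 2732, 3416 and 2851 in KO (log2 fold change -1.53, adjusted p = 2.16e-11), and Gli1 had 40, 50 and 37 in WT and 4, 10 and 13 in KO (-2.40, adjusted p = 2.30e-05). WT and KO below therefore mean the libraries labelled so, and every direction rests on those labels.

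The Hippo pathway is a kinase cascade that restrains YAP and TAZ. The kinases MST1 and MST2 (Stk4 and Stk3) activate LATS1 and LATS2, which phosphorylate YAP and TAZ and thereby keep them in the cytoplasm or mark them for degradation. Unphosphorylated YAP and TAZ enter the nucleus, bind TEAD factors and switch on genes such as Ccn1, Ccn2 and Ankrd1. Cell density, matrix stiffness and the actin cytoskeleton act on this cascade, and in fibroblasts YAP and TAZ are known for their part in matrix production and activation. Because the control is largely by phosphorylation and location, mRNA levels do not measure YAP or TAZ activity itself.

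TEAD factors recognise the letters GGAATG, and these letters are shown where they lie near the start of the 10 genes and of Ccn1, a standard target gene, since several of the genes act both in and downstream of the pathway. The RefSeq promoter table (GRCm38.p6, 250 bases before to 50 after each start) holds 9 of the 10 genes, all but Tead1, with 13 windows. Both strands were searched, so that a match on the opposite strand reads CATTCC along the gene. The letters were in the windows of 7 of these 9 genes (77.8%) and in 9 of the 13 windows (69.2%). Of all 32851 windows in the table, 14.7% hold them, and of the windows of genes tested here, 12.6%. Counted by gene, these shares are 16.6% and 14.6%. The windows of Wwtr1 overlap and hold the same match. The Tead2 and Lats1 windows have no match, nor do those of the target genes Nt5e, Igfbp3 and Gadd45a described below. Of the listed target genes that are not among the 10, 12 have windows, and 4 of these hold a match (33.3%). Target genes among the 10 count only in the share of 77.8%. In the lines below, the 30 bases are read 5′ to 3′ on the strand that gives GGAATG, which stands in capitals.
Yap1, chr9:8004720-8004749, minus strand: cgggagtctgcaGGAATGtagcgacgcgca
Wwtr1, chr3:57576029-57576058, minus strand: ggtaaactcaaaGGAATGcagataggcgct
Tead3, chr17:28350970-28350999, minus strand: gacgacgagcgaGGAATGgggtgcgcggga
Lats2, chr14:57746102-57746131, minus strand: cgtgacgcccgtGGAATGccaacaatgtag
Amotl2, chr9:102717727-102717756, minus strand: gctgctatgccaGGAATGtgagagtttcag
Ajuba, chr14:54577830-54577859, plus strand: gaggggcactgtGGAATGtatccatcaacg
Ankrd1, chr19:36120037-36120066, minus strand: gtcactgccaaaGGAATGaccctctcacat
Ankrd1, chr19:36119950-36119979, minus strand: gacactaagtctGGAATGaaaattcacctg
Ccn1, chr3:145650071-145650100, plus strand: tcaaacatctcaGGAATGttggttggcgcg
Starts are those of RefSeq, and distances are to the first letter of a match read along the gene. In Ankrd1 the matches lie 210 and 123 bases before the start, in Yap1 141, in Wwtr1 136 and in the target gene Ccn1 103. The printed matches of Ankrd1, Amotl2 and Lats2 lie inside the gene spans given below, which are from GENCODE. Lats2 has its match just past the start, and in Ajuba and Tead3 there are further matches. A match shows letters only, not a bound site, and binding was not measured in these libraries.

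Counted reads on genes ranged from 31728420 to 41035931 per library, and a count of 3 was between 0.072 and 0.0957 CPM (counts scaled to a library of equal size), so all 10 genes lay far above that floor, the lowest library value being 1126 counts (Tead2). Levels can be compared between genes only per length, and are given for that as CPM per kilobase of annotated exon (GENCODE M21). In WT, Amotl2 was highest at 116 ± 2.04 (SD, n = 3), followed by Ajuba (38.4 ± 1.87), Wwtr1 (30.8 ± 0.300), Ankrd1 (27.4 ± 1.77), Tead1 (24.4 ± 1.20), Yap1 (18.5 ± 0.332), Lats1 (14.2 ± 0.670), Tead3 (13.4 ± 0.755), Lats2 (9.68 ± 0.189) and Tead2 (7.998 ± 0.0857). Among neighbours in this order only Lats1 and Tead3 overlapped between libraries. In KO the order was the same except that Ankrd1, at 54.9 ± 1.70, stood second after Amotl2 at 134 ± 2.75. Exons of Yap1 and Tead2 overlap annotated genes on the opposite strand (Gm20416 by 116 bases and Cd37 by 13), and Lats2 shares 1301 bases on its own strand with Gm49361. None of these 3 is listed in the table, and whether counting used strand is not given in the sources used here.

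The co-activators were slightly higher in KO. Yap1 (chromosome 9, 7931999 to 8004596, minus strand, GRCm38) had 168.6, 171.7 and 174.8 CPM in the WT libraries and 186.1, 184.2 and 189.8 in the KO libraries. The groups did not overlap, and Yap1 was 8.72% higher in KO (95% interval 3.99 to 13.7%), a log2 fold change of 0.12 (SE 0.03, adjusted p = 0.00349). Wwtr1 (chromosome 3, 57455649 to 57575910, minus strand) had 148.5, 145.6 and 147.2 CPM in WT and 171.7, 170.1 and 170.5 in KO. The 3 libraries of each group lay close together and the groups were apart, with Wwtr1 16.1% higher in KO (interval 11.3 to 21.1%, log2 fold change 0.22, SE 0.03, adjusted p = 2.68e-05). Within each library the log2 ratio of Yap1 to Wwtr1 counts, which needs no scaling between libraries, was 0.18, 0.24 and 0.25 in WT and 0.12, 0.11 and 0.15 in KO. The mean ratio was lower in KO by 0.09 without overlap, at p = 0.1 in a two-sided exact permutation test, the smallest p that 3 libraries against 3 can give.

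**Figure D1:**
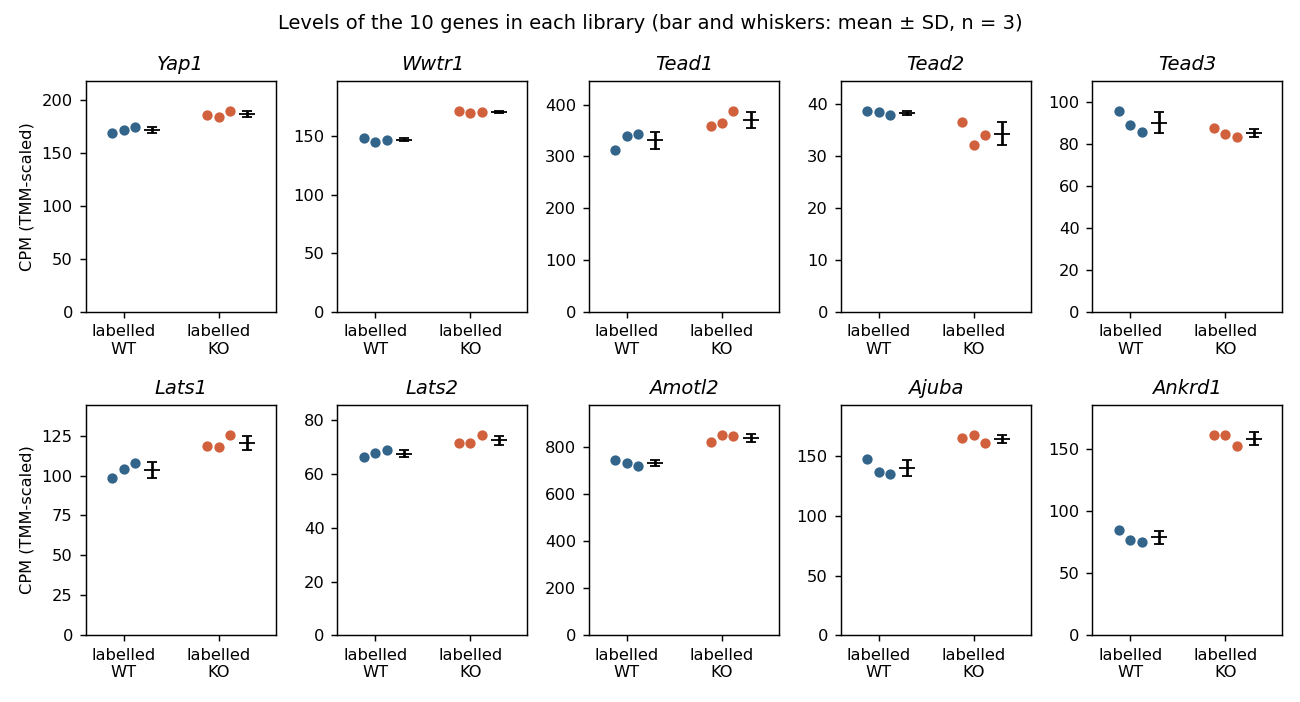
Expression of the 10 genes in each library, in CPM, with 1 panel per gene, each vertical axis starting at 0, points for libraries and, beside them, a bar with whiskers for the mean and SD of the 3 libraries of a group. Ankrd1 goes from a mean of 78.9 CPM in WT to 158 in KO, the fitted differences of the other 9 genes lie between -10.5% (Tead2) and 17.7% (Ajuba), and the groups overlap only in Tead3.

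The 3 TEAD genes, which encode the DNA-binding partners of YAP and TAZ, did not move together. Tead1 (chromosome 7, 112679318 to 112906807, plus strand) had 312.6, 338.8 and 342.6 CPM in WT and 358.5, 364.6 and 387.4 in KO. It was higher in all KO libraries, by 11.7% (interval 5.13 to 18.7%, log2 fold change 0.16, SE 0.04, adjusted p = 0.00429). Tead2 (chromosome 7, 45215753 to 45233644, plus strand) went the other way, with 38.6, 38.4 and 37.8 CPM in WT and 36.6, 32.2 and 34.1 in KO. The groups did not overlap, and the log2 fold change was -0.16 (SE 0.05, adjusted p = 0.0125). This test result was lost with upper-quartile scaling (adjusted p = 0.0885) and without the KO library of 32.2 CPM (adjusted p = 0.0754). Tead3 (chromosome 17, 28331671 to 28350817, minus strand) had 95.8, 89.2 and 85.8 CPM in WT and 87.5, 84.8 and 83.6 in KO. One KO library lay within the WT range, and the log2 fold change of -0.08 (SE 0.04, 95% interval -0.17 to 0.0087) did not pass (adjusted p = 0.110), though it did without the WT library of 85.8 CPM (adjusted p = 0.0297).

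Tead4, the remaining TEAD gene and not among the 10, had 382, 414 and 363 counts in WT and 683, 850 and 730 in KO, a log2 fold change of 0.78 (SE 0.07, adjusted p = 4.96e-07). Per kilobase of exon, Tead1 made up 49.6 ± 2.16% of the TEAD total in WT and 51.6 ± 1.14% in KO (SD, n = 3), with overlap between groups. The share of Tead4 was 6.77 ± 0.285% in WT and 10.8 ± 0.560% in KO, that of Tead2 16.3 ± 0.252% and 13.6 ± 0.885%, and that of Tead3 27.3 ± 1.70% and 24.05 ± 0.987%. For these 3 genes no KO library lay within the WT range. The log2 ratio of Tead1 to Tead2 counts within a library was 3.02, 3.14 and 3.18 in WT and 3.29, 3.50 and 3.51 in KO, and that of Tead1 to Tead3 was 1.71, 1.93 and 2.00 in WT and 2.03, 2.10 and 2.21 in KO. Both ratios were higher in every KO library, by means of 0.32 and 0.24, each at the smallest exact permutation p of 0.1 (adjusted over 4 ratios 0.1).

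**Figure D2:**
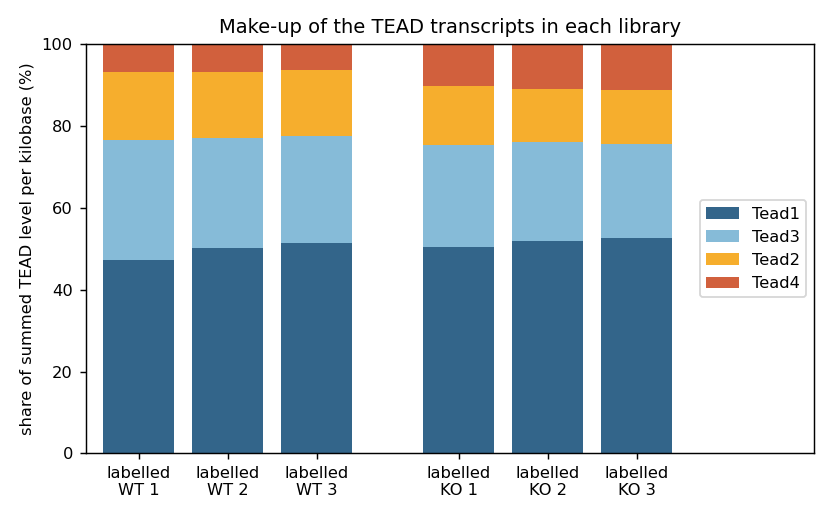
Share of each TEAD gene in the summed TEAD level of a library, in percent of CPM per kilobase of exon, drawn as 1 stacked bar for each of the 6 libraries. Tead1 holds about the same share in both groups, and Tead4 goes from 6.77% in WT to 10.8% in KO while Tead2 and Tead3 hold smaller shares in KO.

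LATS1 and LATS2 are the kinases that phosphorylate YAP and TAZ. Lats1 (chromosome 10, 7681214 to 7716460, plus strand) had 98.2, 104.3 and 107.9 CPM in WT and 118.6, 117.6 and 125.4 in KO. All KO libraries were above all WT libraries, by 16.4% (interval 9.60 to 23.7%, log2 fold change 0.22, SE 0.04, adjusted p = 4.31e-04). Lats2 (chromosome 14, 57689662 to 57758388, minus strand) had 66.1, 67.7 and 68.7 CPM in WT and 71.5, 71.3 and 74.4 in KO, a log2 fold change of 0.10 (SE 0.03, adjusted p = 0.0234). The groups were apart by less than the range of the KO libraries, and the Lats2 result was lost in DESeq2 (adjusted p = 0.0802) and without the WT library of 66.1 CPM, the WT library of 67.7 CPM or the KO library of 74.4 CPM (adjusted p up to 0.0779). The log2 ratio of Lats2 to Lats1 counts was -0.57, -0.62 and -0.65 in WT and -0.73, -0.72 and -0.75 in KO, lower in every KO library by a mean of 0.12 (exact permutation p = 0.1).

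AMOTL2 is a junction-associated scaffold that binds YAP and holds it back, and AJUBA is a LIM protein that binds LATS kinases and limits their action on YAP. Both genes were higher in KO. Amotl2 (chromosome 9, 102716672 to 102733418, plus strand) had 745.0, 732.7 and 719.4 CPM in WT and 820.7, 853.0 and 847.5 in KO, a difference of 14.8% (interval 9.91 to 19.8%, log2 fold change 0.20, SE 0.03, adjusted p = 6.28e-05). Ajuba (chromosome 14, 54567472 to 54577558, minus strand) had 147.7, 136.5 and 135.3 CPM in WT and 164.9, 167.7 and 161.0 in KO, a difference of 17.7% (interval 11.3 to 24.5%, log2 fold change 0.24, SE 0.04, adjusted p = 1.38e-04). The groups of both genes were apart, and after Ankrd1 the Ajuba difference was the widest of the 10.

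Ankrd1 encodes an ankyrin repeat protein best known from stressed heart muscle and is a widely used readout of YAP and TAZ. On chromosome 19 (36111961 to 36120099, minus strand) it had 2654, 2586 and 2392 counts in WT and 5719, 6714 and 5044 in KO, or 84.7, 77.2 and 74.9 against 161.5, 161.1 and 152.8 CPM. Every KO library was far above every WT library: the means were 78.9 ± 5.10 and 158 ± 4.92 CPM (SD, n = 3), 2.01-fold, with a log2 fold change of 1.01 (SE 0.04, 95% interval 0.91 to 1.10, adjusted p = 1.03e-09). Its change was larger than that of 89.8% of the genes tested. Over 16 alternative settings the log2 fold change stayed between 0.97 and 1.06.

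Calls needed both an adjusted p below 0.05 and a 1.5-fold change or more. Ankrd1 was the only call among the 10 genes, against 17.7% of the 14289 genes tested in all (11.6% higher and 6.1% lower). By adjusted p alone 9 of the 10 passed, 8 higher and 1 lower, against 58.7% of all genes (29.9% higher and 28.8% lower). The groups did not overlap in 9 of the 10 genes, against 64.2% of all genes. Wells of a group differed little, with a common biological coefficient of variation of 3.74%, and differences well under 1.5-fold passed by adjusted p. The median log2 fold change was 0.18 over the 10 genes and 0.0020 over all genes tested. It moves with scaling: with upper-quartile scaling the median of the 10 was 0.24 and that of all genes 0.06, and all 10 genes kept their direction under each scaling tried.

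**Figure D3:**
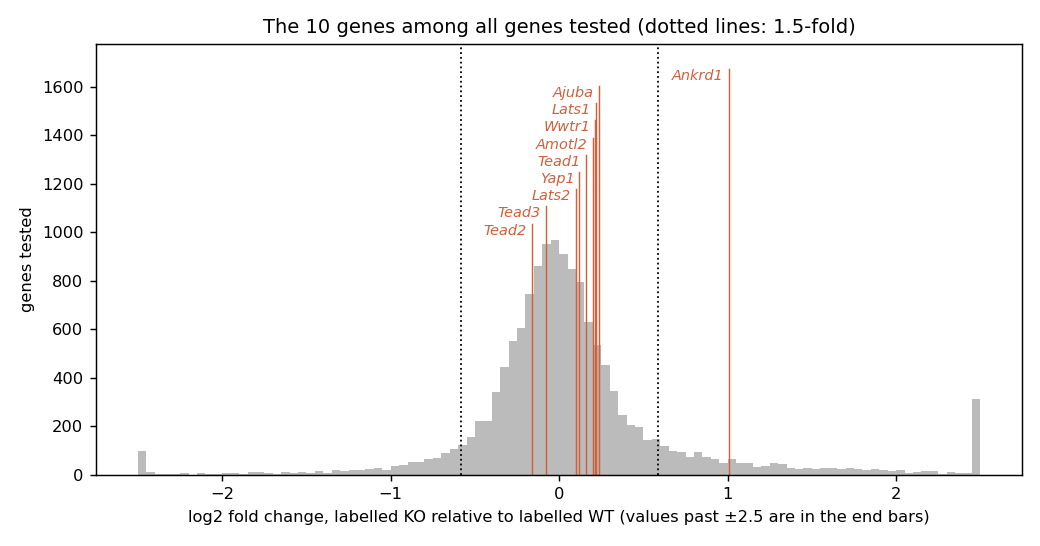
Histogram of the log2 fold changes of all 14289 genes tested, KO relative to WT, in grey, with a line for each of the 10 genes, changes past 2.5 in either direction in the end bars, and dotted lines at 1.5-fold. Line heights are for legibility only. Ankrd1 at 1.01 lies past the dotted line, and the other 9 lie between -0.16 and 0.24 in the body of the distribution.

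The rest of the pathway was read from lists of known components. Of 15 genes of the kinase cassette (MST kinases, their adaptors and the MAP4K and TAO kinases that act in parallel), 4 were higher, 7 lower and 4 did not pass by adjusted p, with a median log2 fold change of -0.01, where 29.9% of all genes tested were higher and 28.8% lower. Stk4 (MST1) was lower, with a log2 fold change of -0.17 (adjusted p = 0.00409), and Stk3 (MST2) higher by 0.11 (adjusted p = 0.0330), a result lost in DESeq2 (adjusted p = 0.114) and without any 1 of 3 libraries (up to 0.135). Only Tnik, a MAP4K family kinase also known from Wnt signalling, was called: it had 220, 314 and 325 counts in WT and 555, 754 and 635 in KO (log2 fold change 0.99, SE 0.11, adjusted p = 7.85e-06). Neither MST gene changed by 1.5-fold, and 1 call among 15 genes compares with 17.7% of all genes tested.

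Of 16 membrane, junction and polarity regulators, 15 were tested, and 5 were higher, 1 lower and 9 did not pass, with a median of 0.04, against the same shares of 29.9% higher and 28.8% lower over all genes. Nf2, the gene of the upstream activator merlin, had 133 ± 5.21 CPM in WT and 126 ± 2.16 in KO (log2 fold change -0.08, adjusted p = 0.0777). The 1 call among these 15, against 17.7% of all genes tested, was Amot, the founding angiomotin. It had 303, 350 and 386 counts in WT and 611, 749 and 672 in KO (log2 fold change 0.78, SE 0.09, adjusted p = 5.83e-06). Amotl1, the remaining angiomotin gene, had 5324, 5675 and 5753 counts in WT and 5963, 6866 and 5892 in KO, with a log2 fold change of -0.02 (adjusted p = 0.632), so Amot and Amotl2 passed the test and Amotl1 did not. Dchs1 is not listed in the table.

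The STRIPAK phosphatase complex, which removes the activating phosphate of MST kinases, had 14 of 17 genes tested. By edgeR none of them was called, nor by DESeq2 or limma, where 17.7% of all genes tested were called by edgeR. By adjusted p 2 were higher and 4 lower, against 29.9% and 28.8% of all genes. By unadjusted p under 0.05, 8 passed, against 9002 of all 14289 genes, and the median log2 fold change was 0.03. Among the cofactors that compete with YAP and TAZ for TEADs, Vgll3 was higher in KO (5586, 5860 and 5468 counts in WT and 7724, 9188 and 7217 in KO, log2 fold change 0.33, adjusted p = 8.08e-07), and Vgll4 by 0.10 (adjusted p = 0.0176), which was lost in DESeq2 (adjusted p = 0.0680) and without the WT library of 2212 counts or the KO library of 2410 counts (up to 0.0654). Vgll1 and Vgll2 are not listed in the table.

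**Figure D4:**
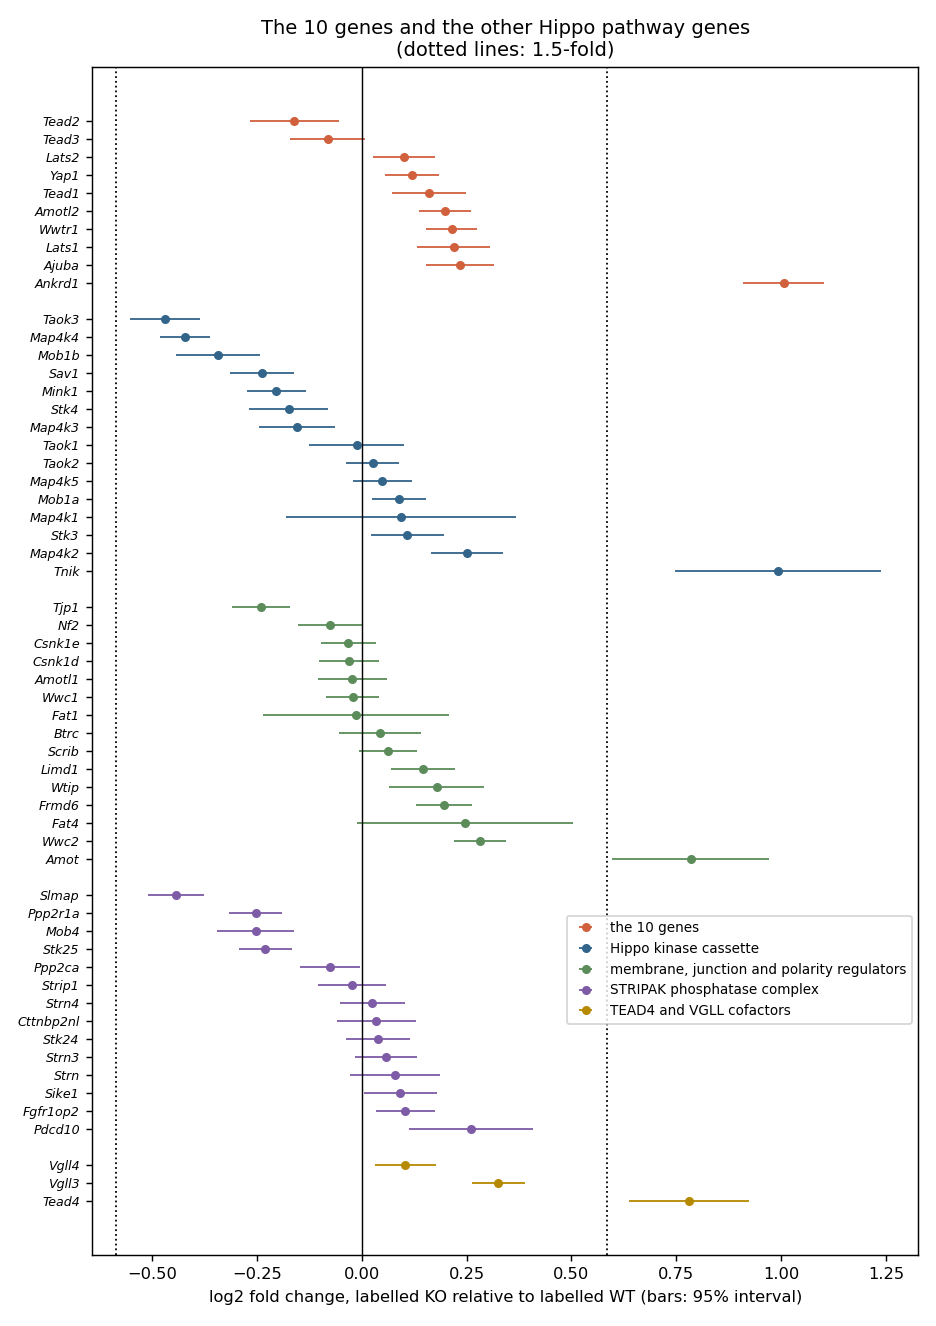
Log2 fold change, KO relative to WT, with its 95% interval for the 10 genes and each tested gene of the 4 other pathway lists, coloured by list, with dotted lines at 1.5-fold. Past the line lie Ankrd1, Tnik, Amot and Tead4, all higher in KO, and the other points lie between the dotted lines.

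Genes known to be switched on by YAP and TAZ in other cells were counted without the 3 that are among the 10. Of 19 such genes 7 were called higher and 1 lower (background 11.6% and 6.1% of all genes tested). By adjusted p 11 were higher, 7 lower and 1 did not pass, with a median log2 fold change of 0.19, so the list did not move in 1 direction. Ccn1 and Ccn2, matricellular proteins and the usual readouts beside Ankrd1, were both higher. Ccn1 had 9663, 9377 and 8428 counts in WT and 24957, 30532 and 22322 in KO, a log2 fold change of 1.31 (SE 0.05, adjusted p = 2.73e-10). Ccn2 had 8907, 6546 and 4989 counts in WT and 16276, 19996 and 14266 in KO, a log2 fold change of 1.11 (SE 0.15, adjusted p = 3.41e-05). The WT libraries of Ccn2 spread widely (212 ± 65.6 CPM against 457 ± 23.9 in KO), yet every KO library was higher.

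The further named genes called higher in the target list had low levels in WT. Nt5e, which encodes the surface nucleotidase CD73, had 3, 2 and 6 counts in WT and 220, 269 and 200 in KO, a fitted log2 fold change of 5.74 (95% interval 5.27 to 6.20, adjusted p = 2.35e-10). Its WT counts are near the floor of 3, so the size of the change is uncertain, and Nt5e was tested only because of its KO counts. With at least 10 counts required in every library it is not tested and the list has 7 calls in place of 8. Igfbp3, a secreted binder of insulin-like growth factors, had 198, 252 and 285 counts in WT and 1004, 1206 and 1003 in KO (1.94, adjusted p = 1.29e-09). Dock5, an activator of Rac, had 410, 338 and 340 in WT and 1026, 1256 and 1122 in KO (1.46, adjusted p = 2.05e-08). All 3 were higher in every KO library. Gadd45a, a stress response gene also under p53, was the call in the other direction, with 2148, 2032 and 1870 counts in WT and 1385, 1479 and 1136 in KO (-0.78, adjusted p = 2.63e-07). None of these 4 genes had overlapping groups, as was so for 64.2% of all genes tested. All 4 were named because they were called, so this adds nothing to the calls.

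**Figure D5:**
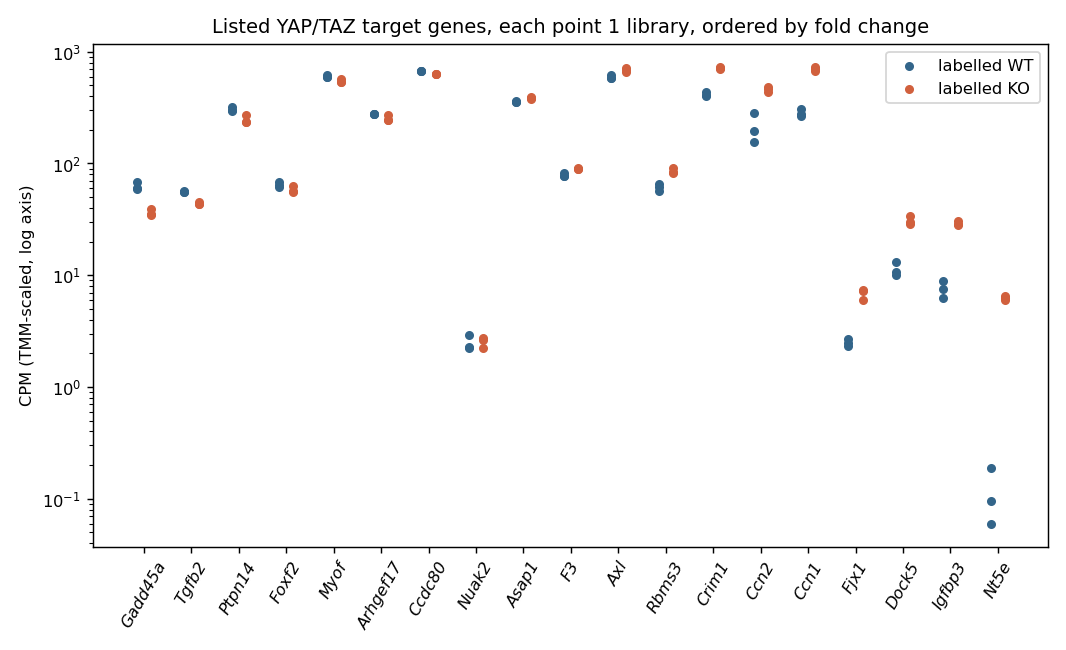
Expression of the 19 listed target genes in CPM on a log axis, each point 1 library, with the genes ordered along the horizontal axis by log2 fold change. Gadd45a at the left is lower in KO and Nt5e at the right is highest in fold change, the groups of Ccn1, Igfbp3 and Dock5 lie well apart, and the 3 WT points of Ccn2 spread over 212 ± 65.6 CPM.

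Other gene groups moved with the same labels, and their counts of calls stand against 11.6% called higher and 6.1% called lower over all genes tested. By adjusted p alone, 29.9% of all genes were higher and 28.8% lower. All 10 proliferation markers passed by adjusted p and were higher in KO, 8 of them called, with a median log2 fold change of 1.498 and a summed level of 273 to 324 CPM in WT and 557 to 641 in KO. All 5 mesothelial markers (Msln, Wt1, Upk3b, Lrrn4 and Upk1b) were called higher, with a summed level of 22.6 to 25.6 CPM in WT and 291 to 293 in KO. Of 10 fibroblast markers 8 were tested, and 7 were lower by adjusted p, 5 of them called, with a median log2 fold change of -0.78 and a lowest of -5.60 (Lum). Their summed level, carried mainly by the collagens Col1a1, Col1a2 and Col3a1, was 44834 to 47247 CPM in WT and 36784 to 38533 in KO, and Pdpn is not listed. The part of these groups in the changes of Ankrd1, Ccn1 and the other genes was not tested, and a change in the share of cells of a kind cannot be told from a change of RNA per cell in bulk libraries.

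Markers of other cell types were low. Over all genes tested, 11.6% were called higher and 6.1% lower, and by adjusted p 29.9% were higher and 28.8% lower. Of 9 epithelial markers, 4 were tested and 3 of them were called higher, with a summed level of 20.2 to 22.7 CPM in WT and 44.0 to 45.5 in KO. Cdh1, Krt7, Krt8, Cela1 and Sox9 are listed, and Epcam, Krt18, Krt19 and Cldn4 are not. Of 6 macrophage markers 4 were tested and 1 passed by adjusted p, lower in KO (summed level 39.7 to 46.0 CPM in WT and 38.8 to 40.4 in KO), and Ptprc and Adgre1 are not listed. None of the 5 endothelial markers is listed. Of 8 muscle markers the heart muscle genes Tnnt2 and Nkx2-5 are listed, both called higher (summed level 26.8 to 30.1 CPM in WT and 46.2 to 49.99 in KO). The log2 fold change was 0.75 for 1 of the pair and 7.36 for the other, which the summed level does not show. With so small a summed level in KO, the gene of the larger change had a very low level in WT. The size of that change is therefore uncertain. The part of all these markers in the results was not tested.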

How the data were processed

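RNAseq of 6 libraries (polyadenylated RNA) was analysed, grouped by the genotype label. The authors deposited raw counts of reads per gene, without normalization, and log2 CPM values, which equal log2 of the count plus 0.5 over an effective library size. The submitters' processing notes name STAR 2.7.2b, featureCounts, limma and GRCm38.p6. The strand setting is not given in the sources used here.

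The test was edgeR's (version 4.0.16, R 4.3.3; TMM, filterByExpr, quasi-likelihood F test), with Benjamini-Hochberg adjustment over the 14289 of 14831 listed genes that passed the filter, all 10 genes included. The SE is the size of the log2 fold change over the root of F. CPM uses TMM effective sizes, and ratios of counts within a library were compared by exact permutation. Lengths and positions are from GENCODE M21, matched by identifier without version for 14822 genes. Alternatives used limma 3.58.1, DESeq2 1.42.0, other scalings, filters and fold limits, and leaving out each library. The test was checked on simulated counts by adjusted p alone. No 2 libraries of a group agreed within sampling noise (chi-square per degree of freedom 2.47 to 7.53).

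The 10 genes and all lists were chosen with earlier results of these data known. Named are the 10 genes, Gli2, Gli3, every called gene of a pathway list (the 3 largest in each direction where more than 6 were called), Ccn1, Ccn2, Tead4, Nf2, Stk3, Stk4, Vgll3 and Vgll4, and for Yap1, Wwtr1 and Ankrd1 the 3 genes of most alike pattern. A gene of the membrane, junction and polarity list is not reported here and was left out of that list's counts.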

Additional observations from a re-analysis of the deposited data

How the results depend on the processing

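The fold limit was the choice that moved results most. Without it, 8391 genes were called in place of 2531, and 9 of the 10 genes in place of 1, with Yap1 (log2 fold change 0.12), Wwtr1 (0.22), Tead1 (0.16), Tead2 (-0.16), Lats1 (0.22), Lats2 (0.10), Amotl2 (0.20) and Ajuba (0.24) then past the threshold. The 8391 are 58.7% of all genes tested. The lists without the fold limit had 11 calls of 15 in the kinase cassette and 6 of 15 among membrane, junction and polarity regulators. STRIPAK had 6 of 14, Tead4 and the VGLL genes 3 of 3 and the targets 18 of 19. With a limit of 2-fold, 1456 genes were called, Ankrd1 stayed called, and the kinase, junction and Tead4 lists had 0 calls, where each of their calls in edgeR lies between 1.5-fold and 2-fold. Scaling, filter, DESeq2, limma and leaving out each library changed no direction among the 10 genes and no count of calls by over 1.5 times. Leaving out a library gave 2501 to 2618 calls over all genes and 1 among the 10. Without 1 library the log2 fold change of Ccn2 ranged from 0.93 to 1.38 and that of Ankrd1 from 0.97 to 1.06. Vgll4 and Stk3 lost an adjusted p under 0.05 in DESeq2 (0.0680 and 0.114) and without 1 library (up to 0.0654 and 0.135). No paired analysis was possible because the labels give the libraries no replicate numbers. With 3 wells a group, intervals cover the spread of wells and counting, and a difference that missed the threshold is not shown to be absent.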

Other observations

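The genes whose pattern over the 6 libraries was most alike to Yap1, by the root mean square difference of log2 CPM centred on its mean, were Upf2 (0.0064), Cbfa2t2 (0.0070) and Asap1 (0.0086), a gene of the target list, and 992 genes lay within 0.05 of Yap1. Upf2 serves nonsense-mediated RNA decay, Cbfa2t2 is a transcriptional corepressor and Asap1 an Arf GTPase-activating protein. For Wwtr1 they were Cwf19l1 (0.0077), Dync1li2 (0.0099), a dynein light intermediate chain, and Fkbp9 (0.0106), a prolyl isomerase of the endoplasmic reticulum, with 776 genes within 0.05. Ankrd1 had 10 genes as near, led by Stil (0.0220), a centriole duplication gene, Aif1l (0.0350), an actin-binding protein, and Rad18 (0.0412), a DNA repair ubiquitin ligase. Stil had 3.27 CPM in WT and 6.59 in KO, and Rad18 8.85 and 17.1. With 6 libraries in 2 groups these orders follow mainly the size of the difference between groups, and they are given as a description.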
